A study of Mus musculus with 4 samples.

Results

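Layer 2/3 intratelencephalic neurons of the cortex (L2_3_IT_CTX below, the deposited column Glutamatergic_L2_3_IT_CTX) were found in 567 of 14809 spots, or 3.83%, of a spatial transcriptomics series on mouse brain. A spot was taken to hold the type when its deposited share was above 0. The series has 4 sagittal sections, each from 1 wild type C57 mouse: a control, a resilient, a susceptible and a ketamine-treated susceptible mouse. Resilient and susceptible mice had been through chronic social defeat stress (repeated defeat by an aggressor) and were told apart by a social interaction test. The ketamine-treated mouse was a susceptible one given 10 mg/kg intraperitoneally, the other 3 mice received saline, and tissue was taken 7 days after ketamine. The labels used here give neither the age nor the sex of the mice. Each group is 1 section, so no test across mice was possible, and mouse, cutting plane and slide cannot be told apart from the group.

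Intratelencephalic neurons are glutamatergic pyramidal cells whose axons stay within the cortex and striatum. Those of layers 2 and 3 are the main source of connections between cortical areas and, through the corpus callosum, between the hemispheres. In the deposited tables they are 1 of 67 cell types, of which 47 are glutamatergic, 11 GABAergic and 9 non-neuronal. The share of a type is the fraction of a spot that the authors assigned to it, printed here in percent. A spot is a small area of tissue that can hold several cells, so these shares are not counts of cells, and fewer cells of a type cannot be told apart from less RNA per cell. Gene values were not analysed here, so the label of the type rests on the deposited column name and on where its spots fell. Its spots were shared most often with L2_IT_RSP_ACA and L4_5_IT_TPE_ENT, types named for upper and middle layers of the cortex. The layer 6 types L6_CT_CTX and L6b_CTX, in 6.28% and 2.40% of other spots on average, shared none of its spots. Not all deep types were absent. L6_IT_CTX was in 1.05% of its spots against 1.26% of other spots on average, and L5_IT_CTX in 7.94% against 8.95%. In all, 24 of the 66 other types shared none, of which 5 were in at least 1% of the spots of every section and most of the rest were sparse everywhere. Sequencing depth per spot is unknown.

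The number of spots holding the type was similar in the 4 sections. It was 156 of 3733 spots in the control, 135 of 4156 in the resilient section, 136 of 3443 in the susceptible one and 140 of 3477 in the ketamine-treated one. As a percentage of spots this was 4.18% in the control (exact Clopper-Pearson 95% interval 3.56 to 4.87), 3.25% in the resilient section (2.73 to 3.83), 3.95% in the susceptible one (3.32 to 4.66) and 4.03% in the ketamine-treated one (3.40 to 4.73). The resilient section was the lowest, and all 4 intervals overlapped. These intervals cover counting error only, since neighbouring spots of 1 section are not independent.

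The mean share over all spots gave a different order. It was 2.22% in the susceptible, 2.10% in the ketamine-treated, 1.96% in the control and 1.47% in the resilient section. The type was the largest one in 93 spots of the control, 80 of the resilient, 101 of the susceptible and 94 of the ketamine-treated section. Of the spots holding it, it led 59.6% in the control section (51.5 to 67.4), 59.3% in the resilient section (50.5 to 67.6), 74.3% in the susceptible one (66.1 to 81.4) and 67.1% in the ketamine-treated one (58.7 to 74.8). By value, the susceptible section held the type in fewer spots than the control and led more of them, and the intervals of both sections overlapped in each measure. With each cluster given the same weight in every section, the order of the holding percentages turned. They were then 4.25% in the susceptible section and 3.94% in the control.

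**Figure D1:**
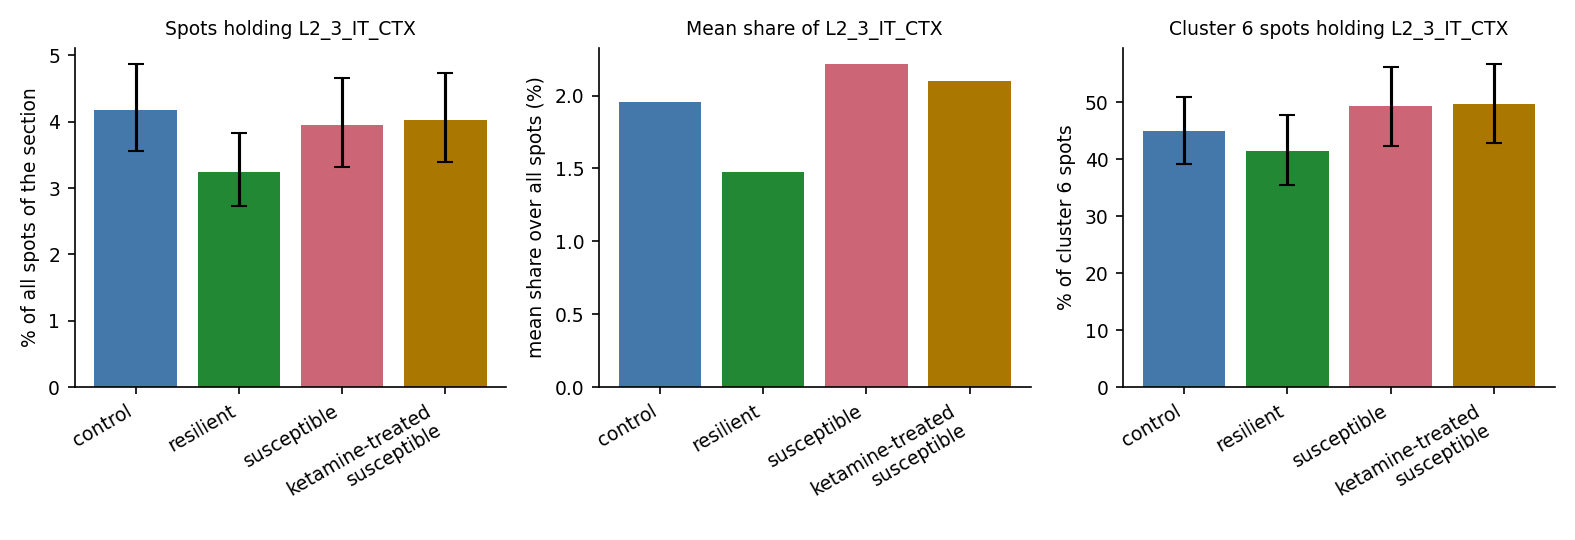
Percent of spots holding L2_3_IT_CTX, its mean share over all spots in percent, and the percent of cluster 6 spots holding it, one bar per section. Error bars are exact 95% binomial intervals for counting error and the mean share has none; the holding bars lie between 3.25% and 4.18%, while the mean share runs from 1.47% to 2.22%.

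Set against all types, the differences of L2_3_IT_CTX between sections were moderate. A type was counted as different in a pair of sections when its mean shares differed at least 1.5-fold, among types averaging at least 1% in either section. L2_3_IT_CTX passed this fold in 1 of the 6 pairs, the susceptible against the resilient section, with a ratio of 1.505 that lies at the threshold. In that pair 43.5% of 23 types passed, and L2_3_IT_CTX ranked 10 by the size of its ratio. The ratio was 1.44 when each cluster was given the same weight in every section and 1.48 in cluster 6 alone, both under the fold. It was 1.54 without the spots given no type and 1.51 with shares under 20% set to 0, both over it. The ketamine-treated section had 1.42 times the resilient share, where 34.8% of types passed the fold, and 0.947 times the susceptible share, where 14.3% passed. Against the control, the ratios were 1.13 for the susceptible section (33.3% of types past the fold), 1.07 for the ketamine-treated section (27.3%) and 0.753 for the resilient section (39.1%). These 3 ratios share the control section, and each of the other sections also enters 3 pairs.

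The type lay almost wholly in 3 of the 17 deposited clusters, numbered 5, 6 and 9. Cluster 6 alone had 82.05% of the summed share in the control, 82.3% in the resilient section, 78.4% in the susceptible one and 75.04% in the ketamine-treated one. Over the 4 sections, 448 of the 974 cluster 6 spots held it, as did 53 of 645 spots in cluster 9 and 47 of 999 in cluster 5. Together these clusters had 96.6% of the holding spots. In 9 clusters no spot held it, which were 7146 spots, and 0 spots allow a share of up to 0.042% there. Cluster 7, where oligodendrocytes prevail, had 1 holding spot among 960.

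Cluster 6 was compared by how many of its spots held the type and by how much they held. The type was held by 129 of 287 control spots, or 44.9% (39.1 to 50.9), and by 110 of 265 resilient spots, or 41.5% (35.5 to 47.7). In the susceptible section it was held by 105 of 213 spots, or 49.3% (42.4 to 56.2), and in the ketamine-treated section by 104 of 209, or 49.8% (42.8 to 56.7). All 4 intervals overlapped. The mean share in those holding spots was 46.5% in the control, 45.8% in the resilient section, 57.0% in the susceptible one and 52.7% in the ketamine-treated one. The mean share over all cluster 6 spots was therefore 20.9%, 19.02%, 28.1% and 26.2% in the same order, the highest of all types in the susceptible section, the third highest in the control and the second highest in the other two.

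Cluster 6 itself was, by value, a larger part of the control section than of the others. It made up 7.69% of the control section (6.85 to 8.59). The resilient section had 6.38% (5.65 to 7.16), the susceptible 6.19% (5.40 to 7.04) and the ketamine-treated 6.01% (5.24 to 6.85). The control interval overlapped those of the resilient and susceptible sections and lay just above that of the ketamine-treated one. Against the control, the susceptible section had 0.805 times the proportion of cluster 6 and 1.34 times the mean L2_3_IT_CTX share within it, and these offset each other in the whole-section ratio of 1.13. Giving each cluster the same weight in every section brought this ratio to 1.35. For the resilient section, the whole-section ratio of 0.753 to the control became 0.937 with these weights. The weights leave out cluster 5. It had 10.6% of the summed share of the type in the control, 12.6% in the susceptible section and 0% in the resilient one. The parts of clusters 5 and 6 in these changes were not tested.

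**Figure D2:**
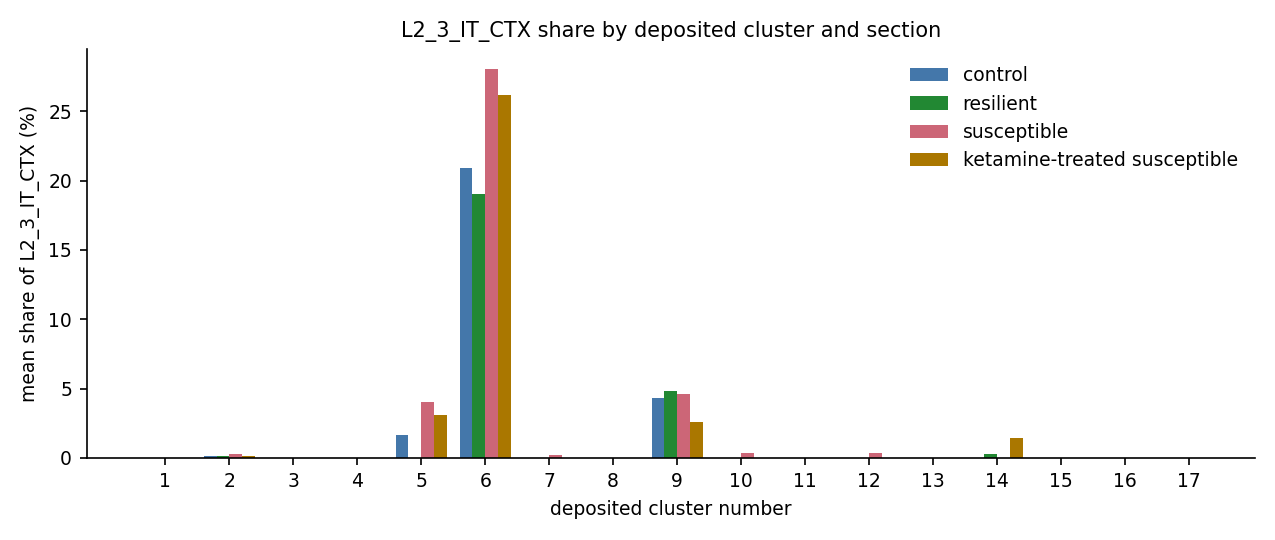
Mean share of L2_3_IT_CTX (percent, vertical axis) in each of the 17 deposited clusters (horizontal axis), one bar per section. Cluster 6 stands above all others in every section, at 19.02% to 28.1%, followed by clusters 5 and 9; cluster 5 had 2 spots in the resilient section and the clusters with no bar had no holding spot.

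Clusters 5 and 9 gave most of the remaining holding spots. In cluster 5, the type was held by 12 of 465 control spots, or 2.58% (1.34 to 4.46), by 18 of 239 susceptible spots, or 7.53% (4.52 to 11.6), and by 17 of 293 ketamine-treated spots, or 5.80% (3.42 to 9.13). The interval of the susceptible section lay just above that of the control, starting at 4.52 where the control ended at 4.46. The resilient section had only 2 spots of this cluster, with no holding spot. The lateral entorhinal layer 2/3 type L2_3_IT_ENTl shared 8 of the 18 susceptible, 7 of the 17 ketamine-treated and 2 of the 12 control holding spots of cluster 5. L5_PT_RSP_ACA, pyramidal-tract neurons of layer 5, shared 8 of those 18 susceptible spots as well. In cluster 9, 12 of 103 control, 21 of 200 resilient, 7 of 73 susceptible and 13 of 269 ketamine-treated spots held the type. The mean share there was 4.30%, 4.80%, 4.60% and 2.59%, lowest in the ketamine-treated section, which had the most cluster 9 spots. The intervals of the holding percentages overlapped there.

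Where the type was present, it took from a small part to the whole of a spot. Every other spot was at 0, so the lowest kept share was the edge of membership. In the control it ran from 14.8% to 100%, with a median of 42.7% (order-statistic 95% interval 39.1 to 46.1). The resilient section ran from 12.6% to 100%, with a median of 40.8% (38.3 to 47.1), and the susceptible section from 15.7% to 100%, with a median of 51.4% (47.5 to 55.3). In the ketamine-treated section the range was 17.7% to 100% and the median 46.4% (43.5 to 53.4). The interval of the susceptible section lay above those of the control and the resilient section, and that of the ketamine-treated section overlapped all others. Spots given wholly to the type numbered 9 of 156 in the control, 8 of 135 in the resilient section, 22 of 136 in the susceptible one and 14 of 140 in the ketamine-treated one. The susceptible value of 16.2% (10.4 to 23.5) overlapped at its edge with the control value of 5.77% (2.67 to 10.7).

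The number of types kept per spot moved with this share. Holding spots had a mean of 2.67 types in the control, 2.81 in the resilient section, 2.32 in the susceptible one and 2.48 in the ketamine-treated one. Over all spots of a section the means were 2.25, 2.33, 2.10 and 2.17, in the same order of sections by size. Among holding spots with exactly 2 types, the control had a median L2_3_IT_CTX share of 61.1%, the resilient section 56.1%, the susceptible one 57.0% and the ketamine-treated one 57.1%. With exactly 3 types it was 37.4%, 38.7%, 40.7% and 40.7%. At 3 types the medians lay within 3.30 percentage points of each other, and at 2 types within 5.01, where the susceptible section was not the highest. Spots of 1 or 2 types made up 60.3% of the susceptible (51.6 to 68.6) and 40.4% of the control holding spots (32.6 to 48.5), with separate intervals. The part of the number of types in the higher share of the susceptible section was not tested further.

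**Figure D3:**
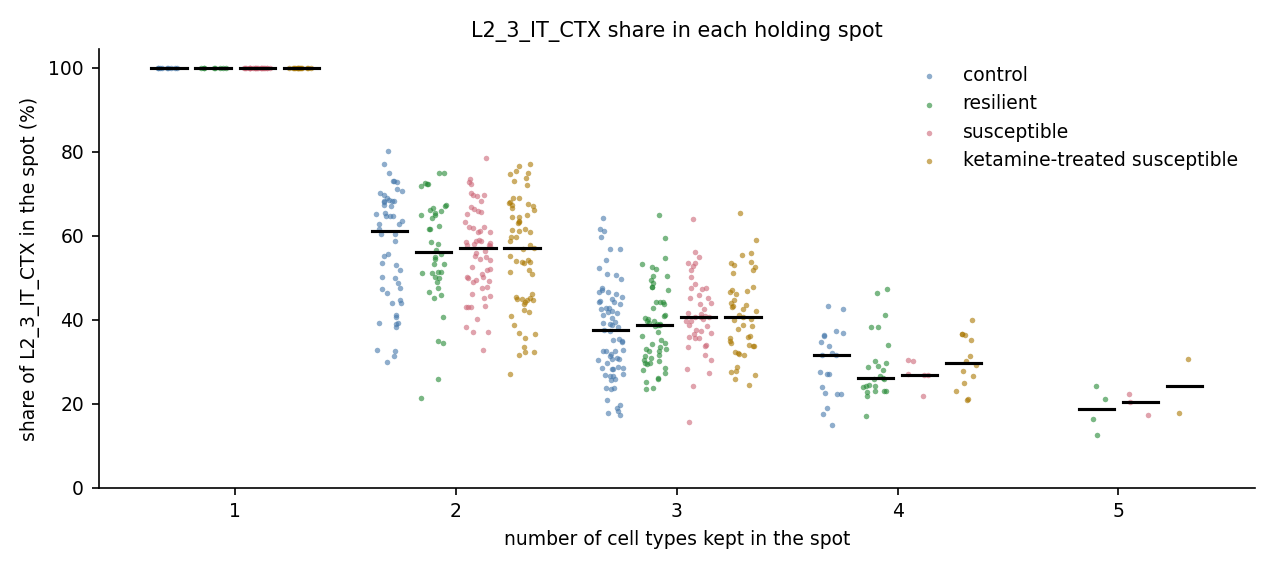
Share of L2_3_IT_CTX in each spot that holds it (percent, vertical axis), by the number of types kept in the spot (horizontal axis) and by section; each point is a spot and black lines are medians. The medians of the sections lie close together at each number of types, 56.1% to 61.1% at 2 types and 37.4% to 40.7% at 3.

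The partners of the type were few. Of the 567 holding spots, 424, or 74.8%, also held at least 1 of 3 types: L4_5_IT_TPE_ENT, L2_IT_RSP_ACA or astrocytes. Averaged over the sections, L4_5_IT_TPE_ENT was in 37.5% of holding spots against 11.4% of other spots, a ratio of 3.28. By name these are layer 4/5 intratelencephalic neurons of the temporal association, perirhinal, ectorhinal and entorhinal areas. The largest part of their share lay outside cluster 6. It lay in cluster 2 in the control (40.0%). In the resilient (39.6%), susceptible (40.3%) and ketamine-treated (33.9%) sections it lay in cluster 3, which astrocytes led. L2_IT_RSP_ACA, layer 2 neurons of the retrosplenial and anterior cingulate cortex, were in 35.2% against 8.71%, a ratio of 4.05. Astrocytes, the glia that support synapses and take up glutamate, were in 28.3% against 45.2%, a ratio of 0.626. As mean share of the rest of the spot, the part not given to L2_3_IT_CTX, the astrocyte ratio was 0.893. The rest of the 10 most frequent partners were L2_3_IT_ENTl (10.05%), L5_PT_RSP_ACA (8.88%), L5_IT_CTX (7.94%), L2_3_IT_TPE (6.08%), microglia (Micro, 3.91%), L5_IT_TPE_ENT (3.28%) and Sncg interneurons (1.79%).

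Partner types were ranked against their presence elsewhere among the 23 types held by at least 1% of spots in every section. Of these, 3 were at least 1.5-fold more frequent in L2_3_IT_CTX spots than in other spots, which is 13%, and 17 were at least 1.5-fold less frequent, which is 73.9%. The 3 were L2_IT_RSP_ACA, L2_3_IT_ENTl (ratio 3.45) and L4_5_IT_TPE_ENT. Also above 1 were L5_IT_TPE_ENT (1.20) and Micro (1.14). Micro was at 0.980 in the control. Within cluster 6 its ratio was 0.612 in the control and 0.705 in the resilient section. It was 5.14 in the susceptible section and 5.05 in the ketamine-treated one, each on 5 holding spots and 1 other spot. The L5_IT_TPE_ENT ratio did not keep its direction across sections. It was 2.02 among resilient spots (14 shared) and 1.21 among control spots (2 shared). With 1 shared spot each, it was 0.361 for the ketamine-treated mouse and 0.270 for the susceptible one. L5_IT_CTX stood at 0.887, which turned to 1.18 when taken as mean share of the rest of the spot. Among the 17, Sst_Chodl, L6_CT_CTX, L6b_CTX, NP_SUB and SMC shared 0 of the 567 spots, and 0 spots allow up to 0.529%. L2_IT_RSPv was in 1 holding spot, VLMC and Ndnf_HPF in 1 each, and Pvalb interneurons in 4. L2_3_IT_TPE, too sparse for this ranking, was in 34 holding spots, with 6.08% against 0.355% elsewhere.

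Oligodendrocytes, whose myelin the series title concerns, were nearly absent from the spots of the type. Oligo was in 3 of 156 control, 0 of 135 resilient, 1 of 136 susceptible and 1 of 140 ketamine-treated holding spots. In the other spots of those sections it was in 44.0%, 32.2%, 26.7% and 25.1%. Oligodendrocyte precursors (OPC) were in 1 holding spot of the series, in the ketamine-treated section. The presence of Oligo thus differed between sections in spots without L2_3_IT_CTX, and its mean share over cluster 6 was at most 0.532% in any section.

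GABAergic types were in 9 of 156 holding spots in the control, 10 of 135 in the resilient section, 8 of 136 in the susceptible one and 4 of 140 in the ketamine-treated one. As percentages these were 5.77%, 7.41%, 5.88% and 2.86%, against 21.5%, 25.7%, 23.6% and 21.04% of other spots. Other glutamatergic types shared 80.1% of control holding spots (73.0 to 86.1), 85.9% of resilient ones (78.9 to 91.3), 64.0% of susceptible ones (55.3 to 72.02) and 72.9% of ketamine-treated ones (64.7 to 80.02). The susceptible section was the lowest, with an interval below those of the control and the resilient section. Of other spots, 60.6%, 64.8%, 64.9% and 65.1% held such a type, so the susceptible value was near that of its other spots. Spots given wholly to L2_3_IT_CTX, which hold no partner, were 22 of 136 in the susceptible section and 9 of 156 in the control. Non-neuronal types shared 38.5% of the holding spots in the control and 28.9%, 30.1% and 29.3% in the resilient, susceptible and ketamine-treated sections. They were in 72.1%, 64.7%, 61.4% and 63.0% of the other spots, in the same order.

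L2_IT_RSP_ACA was the partner that differed most between sections in percentage points, while by fold sparser partners given further on differed more. It was in 73 of 156 control holding spots, or 46.8% (38.8 to 54.9), and in 58 of 135 resilient ones, or 43.0% (34.5 to 51.8). In the susceptible section it was in 24 of 136, or 17.6% (11.6 to 25.1), and in the ketamine-treated section in 47 of 140, or 33.6% (25.8 to 42.04). The susceptible interval lay below the other 3, and those overlapped with each other. Leaving out the spots given wholly to L2_3_IT_CTX, the susceptible value was 21.1% (14.0 to 29.7) and the ketamine-treated one 37.3% (28.9 to 46.4), whose intervals overlapped slightly, while those of the control (49.7%, 41.3 to 58.02) and the resilient section (45.7%, 36.8 to 54.7) stayed above the susceptible one. Susceptible holding spots also kept fewer types, as given above, and the part of this in the difference was not tested.

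Within cluster 6 the presence of L2_IT_RSP_ACA could be set against the spots without L2_3_IT_CTX. L2_IT_RSP_ACA was in 20 of 105 susceptible holding spots, or 19.05% (12.04 to 27.9), against 62.04% (52.2 to 71.2) of the other cluster 6 spots. In the ketamine-treated section it was in 40.4% (30.9 to 50.5) against 77.1% (67.9 to 84.8). The control had 48.8% (39.9 to 57.8) against 58.9% (50.8 to 66.6), and the resilient section 41.8% (32.5 to 51.6) against 34.2% (26.8 to 42.2), both with overlapping intervals. In the susceptible and ketamine-treated sections the intervals of holding and other spots were thus separate, with 42 of 104 ketamine-treated holding spots still holding both types. Averaged over sections, the ratio of presence was 4.05 over whole sections and 0.646 within cluster 6, the opposite direction. Holding spots have less room for other types, so the share was also taken of the rest of the spot, the part not given to L2_3_IT_CTX, over spots that had such a part. On this measure L2_IT_RSP_ACA had 14.0% of the rest in susceptible holding spots against 42.9% in other cluster 6 spots, and 28.3% against 44.7% in ketamine-treated ones. The control had 33.9% against 30.3% and the resilient section 28.1% against 16.1%, so holding spots were the higher ones there. Taken of the whole spot, the mean share was lower in holding spots of these 2 sections, at 18.7% against 30.3% and 15.7% against 16.1%.

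The mean L2_IT_RSP_ACA share in cluster 6 does not follow this order. It was 25.1% in both the control and the susceptible section, 29.6% in the ketamine-treated and 15.95% in the resilient section. Among cluster 6 spots without L2_3_IT_CTX, L2_IT_RSP_ACA took at least 50% of the spot in 38 of 158 in the control, 21 of 155 in the resilient section, 51 of 108 in the susceptible one and 46 of 105 in the ketamine-treated one. In the cluster 6 spots with both types, L2_IT_RSP_ACA had a median share of 35.3%, 35.3%, 33.6% and 33.1%, nearly the same in every section. Across the spots of cluster 6, the Spearman correlation of their shares was −0.23 in the control (287 spots), −0.03 in the resilient section (265), −0.53 in the susceptible one (213) and −0.52 in the ketamine-treated one (209). Shares of a spot sum to 1, which by itself lowers such correlations.

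**Figure D4:**
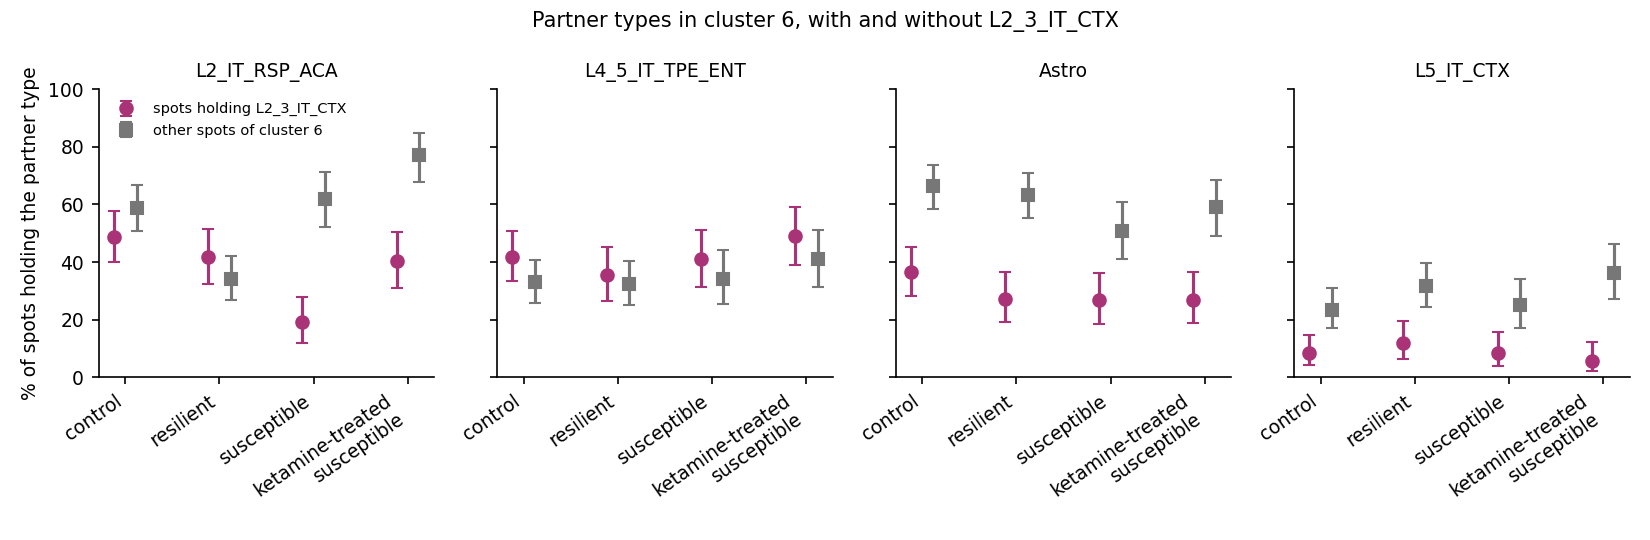
Percent of cluster 6 spots holding each of 4 partner types (vertical axis), in spots with L2_3_IT_CTX (circles) and without it (squares), for each section; bars are exact 95% binomial intervals for counting error. L2_IT_RSP_ACA is at 19.05% against 62.04% in the susceptible section and at 41.8% against 34.2% in the resilient one; the intervals of L4_5_IT_TPE_ENT overlap in every section, and Astro and L5_IT_CTX are present in fewer of the L2_3_IT_CTX spots in every section. Presence does not allow for the room that L2_3_IT_CTX takes in a spot.

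L4_5_IT_TPE_ENT was a steady partner. It shared 60 of 156 control holding spots (38.5%), 49 of 135 resilient ones (36.3%), 48 of 136 susceptible ones (35.3%) and 56 of 140 ketamine-treated ones (40.0%). Within cluster 6 it was in 41.8% of holding against 35.1% of other spots on average, with overlapping intervals in each section. Of the rest of the spot it had more in holding spots in every section: 21.7% against 10.2% in the control and 17.4% against 11.02% in the resilient section. The susceptible section had 30.2% against 11.8% and the ketamine-treated one 32.7% against 12.6%. Taken of the whole spot, the mean share of L4_5_IT_TPE_ENT in cluster 6 went both ways. It was 8.998% against 11.02% in the resilient section and 11.5% against 11.8% in the susceptible one, lower in holding spots. The control had 10.6% against 10.2% and the ketamine-treated section 13.4% against 12.6%, slightly higher in holding spots. L4_5_IT_TPE_ENT was usually the smaller of the pair. In the spots they shared, its median shares were 24.8% to 27.2% against 38.2% to 46.9% for L2_3_IT_CTX. The most frequent sets of types were L2_3_IT_CTX with L2_IT_RSP_ACA alone, or with both neuronal partners, in the control (20 spots each). In the resilient section it was L2_3_IT_CTX with L2_IT_RSP_ACA (15 spots), in the susceptible section L2_3_IT_CTX by itself (22 spots), and in the ketamine-treated section the pairs with astrocytes and with L4_5_IT_TPE_ENT (18 spots each).

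Astrocytes and L5_IT_CTX were in fewer of the cluster 6 spots that held the type than of those that did not. Astro was in 36.4% of control holding spots of cluster 6 (28.1 to 45.4) against 66.5% of the others (58.5 to 73.8). The resilient values were 27.3% against 63.2%, the susceptible ones 26.7% against 50.9% and the ketamine-treated ones 26.9% against 59.05%. L5_IT_CTX, the intratelencephalic type of layer 5, was in 8.53%, 11.8%, 8.57% and 5.77% of the holding spots, against 23.4%, 31.6%, 25.0% and 36.2% of the others. In every section both types had separate intervals for the holding and the other spots. Of the rest of the spot, Astro had 21.4% against 34.4% in the control and 15.1% against 34.1% in the resilient section. In the susceptible section it had 23.2% against 25.7% and in the ketamine-treated one 20.4% against 23.1%, so most of the gap in presence was not seen there. L5_IT_CTX had 5.44% against 8.05%, 5.43% against 10.9%, 5.43% against 8.23% and 2.01% against 11.4%, lower in holding spots in all 4 sections. L5_PT_RSP_ACA went the other way inside cluster 6, at 7.82% against 1.99% on average. Over whole sections it was less frequent beside L2_3_IT_CTX (8.88% against 17.3%). Its cluster 6 values rest on few spots. The control had 10 of 129 holding and 1 of 158 other spots, and the resilient section 8 of 110 and 4 of 155. The susceptible section had 8 of 105 and 1 of 108, and the ketamine-treated one 9 of 104 and 4 of 105. The intervals were separate in the control only (3.78 to 13.8 against 0.016 to 3.48).

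The highest counts of 3 sparser partners lay in the resilient section for L5_IT_TPE_ENT and L2_3_IT_TPE and in the susceptible one for L2_3_IT_ENTl. L5_IT_TPE_ENT was in 14 of 135 resilient holding spots, or 10.4% (5.79 to 16.8), against 2 of 156 in the control and 1 each in the other two sections. L2_3_IT_TPE, a layer 2/3 type of the same lateral areas, was in 17 resilient holding spots, or 12.6% (7.51 to 19.4), against 7 in the control, 4 in the susceptible section and 6 in the ketamine-treated one. Both types were also more frequent in the rest of the resilient section, at 5.12% and 0.746% of other spots, than in the rest of the others. L2_3_IT_ENTl was in 21 of 136 susceptible holding spots, or 15.4% (9.82 to 22.6), 14 ketamine-treated, 13 resilient and 8 control ones, the last at 5.13% (2.24 to 9.85), with overlapping intervals.

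Measured by the correlation of mean shares over clusters, L2_IT_RSP_ACA came closest to the type in location. Over the 66 pairs of cluster and section that hold spots, the mean share of L2_3_IT_CTX followed that of L2_IT_RSP_ACA with a Pearson correlation of 0.90, that of L4_5_IT_CTX with 0.80 and that of L2_3_IT_TPE with 0.69, the 3 highest among all types. This measure was chosen after values had been seen, and the points share sections. L2_3_IT_CTX and L4_5_IT_CTX nevertheless shared only 1 spot in the series. L4_5_IT_CTX was kept in 6 to 21 spots a section, and in cluster 6 it was in no holding spot and in 8 of 158 control, 14 of 155 resilient, 3 of 108 susceptible and 5 of 105 ketamine-treated spots without L2_3_IT_CTX. L2_IT_RSP_ACA was held by more spots than L2_3_IT_CTX, at 399, 241, 314 and 461, and had 30.7% to 48.3% of its share in cluster 6. In the susceptible and ketamine-treated sections, more of its share lay in cluster 2 (44.0% and 31.3%) than in cluster 6 (37.0% and 30.7%). L4_5_IT_CTX had more of its share in cluster 6 than L2_IT_RSP_ACA in every section, at 50.4% to 77.4%. Of the L2_IT_RSP_ACA spots, 18.3% in the control, 24.1% in the resilient section, 7.64% in the susceptible one and 10.2% in the ketamine-treated one also held L2_3_IT_CTX.

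Deep cortical types differed in how often they met L2_3_IT_CTX. L5_IT_CTX, in 261 to 379 spots a section and mostly in cluster 2, shared 13, 15, 9 and 8 of them with L2_3_IT_CTX, which was 7.94% of holding spots against 8.95% of other spots on average. L6_CT_CTX, whose axons reach the thalamus, was in 173 to 286 spots a section, with no share in cluster 6 and none of the holding spots. L6_IT_CTX shared 2 control, 3 susceptible and 1 ketamine-treated spot. This was 1.28% of control holding spots against 0.923% of other spots, and 2.21% against 1.72% in the susceptible section. The ketamine-treated section had 0.714% against 1.11%, and the resilient section 0% against 1.29%. On average L6_IT_CTX was in 1.05% of holding spots against 1.26% of other spots. L5_NP_CTX, L5_6_IT_CTX and L2_3_IT_PPP shared 1 resilient spot each, and L5_PT_CTX, L6_NP_CT_CTX and L6b_CTX none.

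The sections shared spot barcodes, which on such arrays mark fixed positions: 2735 to 3304 barcodes between any 2 sections and 2503 among all 4. No shared barcode had the same mixed set of shares in 2 sections. Of the barcodes in both the susceptible and the ketamine-treated section, 53.2% had the same cluster number, against 1.10% to 25.8% for the other pairs of sections. L2_3_IT_CTX was held at 132 of these 3304 barcodes in the susceptible section and 127 in the ketamine-treated one, and at 67 in both. At these 67, its median share was 54.3% in the susceptible section and 44.8% in the ketamine-treated one, and the susceptible value was the higher one at 35. Over all 3304, the mean share was 2.25% and 2.01%. For the other pairs, the type was held at the same barcode 7 times between the control and the resilient section, once between the control and the ketamine-treated section, and never otherwise.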

How the data were processed

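Per the labels' protocols, frozen sagittal sections were placed on spatially barcoded slides, and the genome build was mm10, per the submitters' processing notes. How clusters and cell type shares were computed is not given in the sources used here. For every spot the authors deposited its cluster and, as a fraction of the spot, its share of each of 67 types. The fractions sum to 1 in every spot, and no kept fraction of any type was under 10.1%, so smaller ones appear to have been set to 0. Unknown took the whole of 502 spots and never a part.

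A spot held L2_3_IT_CTX when its fraction was above 0. Cluster numbers were taken as 1 clustering of all sections. Percentages have exact Clopper-Pearson 95% intervals, for counting error only. No p-value was computed, with 1 section per group. Cluster weights common to all sections were limited to 13 clusters, each with 20 or more spots per section, so cluster 5 was left out. The weight of a cluster was its mean proportion over the sections, rescaled over the clusters kept. Weights ran from 1.57% to 21.9%, so they were not equal between clusters. Named types were all cortical (CTX) and upper-layer types, the 10 most frequent partners, those with the highest and lowest presence ratios among types in at least 1% of spots of every section, Oligo and OPC. The type and these lists were chosen with earlier results of these data known. The functions were tested on simulated data. Python 3.11.15, pandas 2.3.3 and scipy 1.17.1 were used. t-SNE coordinates were not used.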

Additional observations from a re-analysis of the deposited data

How the results depend on the processing

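Each value was recomputed under the alternatives set for it. The ratios of the mean share between sections kept their direction under every alternative run. Restricted to cluster 6, the mean shares were 20.9%, 19.02%, 28.1% and 26.2% (control, resilient, susceptible, ketamine-treated). Spots filled to at least 50% by the type were 1.47%, 1.15%, 2.09% and 1.90% of all spots, which puts the susceptible section first. Within holding spots, the mean in place of the median was 46.8% in the control and 56.1% in the susceptible section. Alternatives added after seeing the data gave medians of 61.1%, 56.1%, 57.0% and 57.1% for spots of exactly 2 types, and of 37.4% (control), 40.7% (susceptible) and 40.7% (ketamine-treated) for spots of 3. At barcodes common to both, the ketamine-treated section had 0.894 times the susceptible share.

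Within cluster 6 the presence ratio turned from 4.05 to 0.646 for L2_IT_RSP_ACA and from 0.512 to 3.94 for L5_PT_RSP_ACA. The L5_PT_RSP_ACA value rests on few spots, with separate intervals in the control only. Types at least 1.5-fold more frequent beside L2_3_IT_CTX were 5 in place of 3 by share of the rest of the spot, and 4 within cluster 6. Those at least 1.5-fold less frequent were 15 in place of 17 by share of the rest of the spot, and 13 within cluster 6. The number of types past 1.5-fold became 3 at 2-fold for susceptible against control (main value 7), 3 for ketamine-treated against control (6), 3 for susceptible against resilient (10), 0 for ketamine-treated against susceptible (3) and 5 for ketamine-treated against resilient (8). With types averaging at least 0.1%, these became 18, 13, 27, 11 and 23, and 25 for resilient against control (9). No paired analysis was possible because each group has 1 section. Depth per spot is unknown, and shares set to 0 before deposit could hold more of the type.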

Other observations

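Outside clusters 5, 6 and 9, only 19 of 12191 spots held L2_3_IT_CTX. Cluster 2, which deep cortical types lead, had 11 of them, with 3 each in the control, resilient and susceptible sections and 2 in the ketamine-treated one. Cluster 14 had 4 in the ketamine-treated section, where the lateral entorhinal type L2_IT_ENTl led that cluster by mean share, and 1 in the resilient section, where astrocytes led it. The remaining 3 were susceptible spots, 1 each in cluster 7 (43.03% of the spot), cluster 10 (46.1%) and cluster 12 (27.3%). In the 3 susceptible spots of cluster 2 the median share was 100%, against 31.8% in the control, 32.5% in the resilient and 44.0% in the ketamine-treated section.

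Where L2_3_IT_CTX was present without leading the spot, L2_IT_RSP_ACA led 33 of 63 such spots in the control, 26 of 55 in the resilient, 9 of 35 in the susceptible and 16 of 46 in the ketamine-treated section. Astrocytes led 20, 11, 13 and 13 of them, and were the most frequent leaders in the susceptible section only.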
